A study of Mus musculus with 48 samples.

Results

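The liver sinusoid is lined by a specialised endothelium, and 9 genes that mark it or mark its change toward a continuous capillary lining were followed through 48 mouse livers. They were taken by gene name (Stab1, Stab2, Lyve1, Clec4g, Pecam1, Kdr, Vwf, Cd34 and Plvap) from 29221 genes counted in whole-liver RNA-seq, and all 9 were found. Every mouse carried a floxed Pparg gene, and adult mice of both sexes fell into 10 groups. Controls received AAV8-TBG-null, an adeno-associated virus without Cre. The mice labelled knockout received AAV8-TBG-Cre, in which the hepatocyte promoter TBG drives Cre recombinase, after 16 weeks on diet. The low fat (LF) diet was fed to females for 34 weeks and the high fat (HF) diet to both sexes for 34 weeks. The HFCF groups were switched after 18 weeks of HF feeding, for 16 weeks, to food rich in fat, cholesterol and fructose. There were 4 groups of 6 livers from males (control or labelled knockout, HF or HFCF) and 6 groups of 4 livers from females (control or labelled knockout, LF, HF or HFCF).

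Sinusoidal endothelial cells have open pores and almost no basement membrane, so that plasma reaches the hepatocyte, and they clear waste macromolecules through scavenger receptors. In chronic liver injury this lining is known to lose its pores and to take on features of a continuous capillary, a change called capillarization, in which a basement membrane forms and Vwf and Cd34 appear. Stab1 and Stab2 encode the scavenger receptors stabilin-1 and stabilin-2, Lyve1 a hyaluronan receptor, and Clec4g the lectin LSECtin. Pecam1 (the adhesion molecule CD31) and Kdr (the VEGF receptor VEGFR2) are made by endothelium in general. Vwf encodes von Willebrand factor, Cd34 a surface sialomucin of continuous endothelium, and Plvap the protein of the diaphragms that bridge endothelial pores. Several of these genes are also made elsewhere: Lyve1 and Stab1 in some macrophages, Lyve1 in lymphatic vessels, Cd34 in fibroblasts and blood progenitors, Vwf in megakaryocytes, and Pecam1 in platelets and leukocytes.

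The genes lie at 9 loci of GRCm38, as given in the deposited tables, and all are annotated as protein coding. Stab1 (ENSMUSG00000042286) spans chromosome 14, 31139013 to 31168641, and Stab2 (ENSMUSG00000035459) chromosome 10, 86841198 to 87008025. Lyve1 (ENSMUSG00000030787) spans chromosome 7, 110850607 to 110863239, and Clec4g (ENSMUSG00000074491) chromosome 8, 3707064 to 3720651. Pecam1 (ENSMUSG00000020717) spans chromosome 11, 106654217 to 106750628, and Kdr (ENSMUSG00000062960) chromosome 5, 75932827 to 75978458. Vwf (ENSMUSG00000001930) spans chromosome 6, 125546774 to 125686679, Cd34 (ENSMUSG00000016494) chromosome 1, 194938819 to 194961279, and Plvap (ENSMUSG00000034845) chromosome 8, 71497765 to 71511752. Vwf and Cd34 are on the plus strand and the other genes are on the minus strand. Libraries were not strand specific, so reads of overlapping genes on the opposite strand cannot be told apart. The Plvap locus overlaps Gtpbp3 over 1819 bases (139 to 329 reads per library on Gtpbp3, against 844 to 2273 on Plvap), and Stab1 overlaps Nt5dc2 over 112 bases.

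Upstream sequences are shown for 3 genes that stand for the patterns described next. Cd34 had the largest diet difference, Stab1 was the scavenger receptor most often called higher, and Clec4g was called higher in no comparison. They come from RefSeq (GRCm38.p6), whose table held 5 of the 9 genes (Stab1, Stab2, Clec4g, Kdr and Cd34), and end at the last base before the gene boundary given in the deposited tables. They are written 5′ to 3′ on the gene's own strand. Capitals mark GGAA, the core letters bound by ETS factors (a family that includes the endothelial regulators Erg and Fli1), or TTCC, which is GGAA on the other strand.
Cd34 (chr1:194938571-194938818, plus strand): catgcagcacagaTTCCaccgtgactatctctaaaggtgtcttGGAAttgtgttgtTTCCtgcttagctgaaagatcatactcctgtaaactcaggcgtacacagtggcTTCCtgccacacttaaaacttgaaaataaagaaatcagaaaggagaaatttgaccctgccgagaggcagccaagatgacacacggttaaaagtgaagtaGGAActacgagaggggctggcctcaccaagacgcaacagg
Clec4g (chr8:3720652-3720901, minus strand): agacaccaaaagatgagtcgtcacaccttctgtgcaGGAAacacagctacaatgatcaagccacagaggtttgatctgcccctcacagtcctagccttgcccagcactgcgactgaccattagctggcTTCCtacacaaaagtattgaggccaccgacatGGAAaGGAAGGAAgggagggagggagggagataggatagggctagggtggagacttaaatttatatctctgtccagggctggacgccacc
Stab1 (chr14:31168642-31168891, minus strand): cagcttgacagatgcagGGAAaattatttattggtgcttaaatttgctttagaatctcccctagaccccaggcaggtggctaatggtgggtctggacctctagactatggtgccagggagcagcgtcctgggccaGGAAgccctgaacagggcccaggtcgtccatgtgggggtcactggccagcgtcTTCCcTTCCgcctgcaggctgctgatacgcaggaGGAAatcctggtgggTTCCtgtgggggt
The 250 bases upstream of the RefSeq start held 5 GGAA matches for Cd34, 5 for Clec4g and 6 for Stab1, searched on both strands. The 4-letter core is common: 93.45% of 32851 RefSeq windows of the same length held it, so its presence does not set these genes apart. The GATA motif AGATAA, present in 9.99% of windows, and the DR1 direct repeat of nuclear receptors such as PPARG, present in 0.03%, had 0 matches in the 5 available windows. The window of Kdr was the richest in CpG (16 CpG and 61.6% G+C) and that of Cd34 the poorest in G+C (46.4%), against medians of 6 CpG and 52.4% over all windows.

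Depth was 15338239 to 22072884 reads on genes per library, and levels are given as CPM, reads on a gene as a share of the library's reads, scaled by trimmed-mean-of-M-values (TMM) factors. The libraries carried the hepatocyte markers of whole liver in quantity: 6 of these genes summed to between 39115 and 122746 CPM. All 9 endothelial genes had reads in every library, from 7 to 237 reads for Cd34 and from 729 to 2773 for Stab1. The mean level of Pparg in each labelled-knockout group was higher than in the matching control group, in 5 of 5 pairs (for example 56.3 ± 6.18 CPM against 32.3 ± 5.47 CPM, SD, n = 6 each, in HFCF males), so the groups are called by their label. Gene-level counts do not show which exons the reads covered. Among HFCF control males, replicate 1 stood apart, with recruited macrophage markers summing to 256 CPM against 712 to 804 CPM in the other 5. Among HF control females, replicate 1 stood apart, with 370 CPM against 68.3 to 130 CPM in the other 3. Among HFCF labelled-knockout females, replicate 1 stood apart, with 369 CPM against 698 to 725 CPM in the other 3. Counts of the 9 genes called in comparisons that use these 3 libraries are given with and without them. Other markers varied widely in HF labelled-knockout females. Leukocyte markers summed to 16.2 to 76.9 CPM there (median 24.8) and platelet markers to 6.23 to 26.2 CPM (median 7.43). No library of that group was set aside by name, though each was left out in turn. Each library carries a number of its own in its description, but the labels do not say whether the replicates of a group were separate mice. Each library is called a liver here, and p-values measure the spread between these libraries. Strain and age in weeks are not given in the sources used here.

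Per kilobase of gene length, the scale on which genes can be compared, Plvap had the highest levels (group means of 33.6 to 52.8 CPM per kb). Clec4g followed at 12.0 to 22.1 CPM per kb, then Stab1 (6.41 to 11.5) and Stab2 (7.94 to 11.3). Lyve1 ranged from 2.99 to 8.98, Kdr from 4.18 to 6.36 and Pecam1 from 2.96 to 5.37 CPM per kb. The capillarization markers Vwf (0.594 to 1.46 CPM per kb) and Cd34 (0.227 to 1.12 CPM per kb) were the lowest. The sinusoidal genes Stab1, Stab2, Lyve1 and Clec4g exceeded both of them in all 10 groups. Plvap, which was listed with Vwf and Cd34 as a marker of continuous or capillarized endothelium, lay above the sinusoidal genes. Cd34 had the widest relative range of group means, from 1.65 ± 1.44 CPM in HF control females to 8.19 ± 3.15 CPM in HFCF control males. When the 10 groups were ordered by mean CPM for each gene, 7 of the 81 gaps between neighbouring groups exceeded their pooled SD, the largest being 1.37 SD (Pecam1, between LF control females and HFCF labelled-knockout females). Most neighbours in these orders therefore did not differ beyond their spread. Sorting itself places close groups side by side, so this does not bear on groups further apart in the order.

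**Figure D1:**
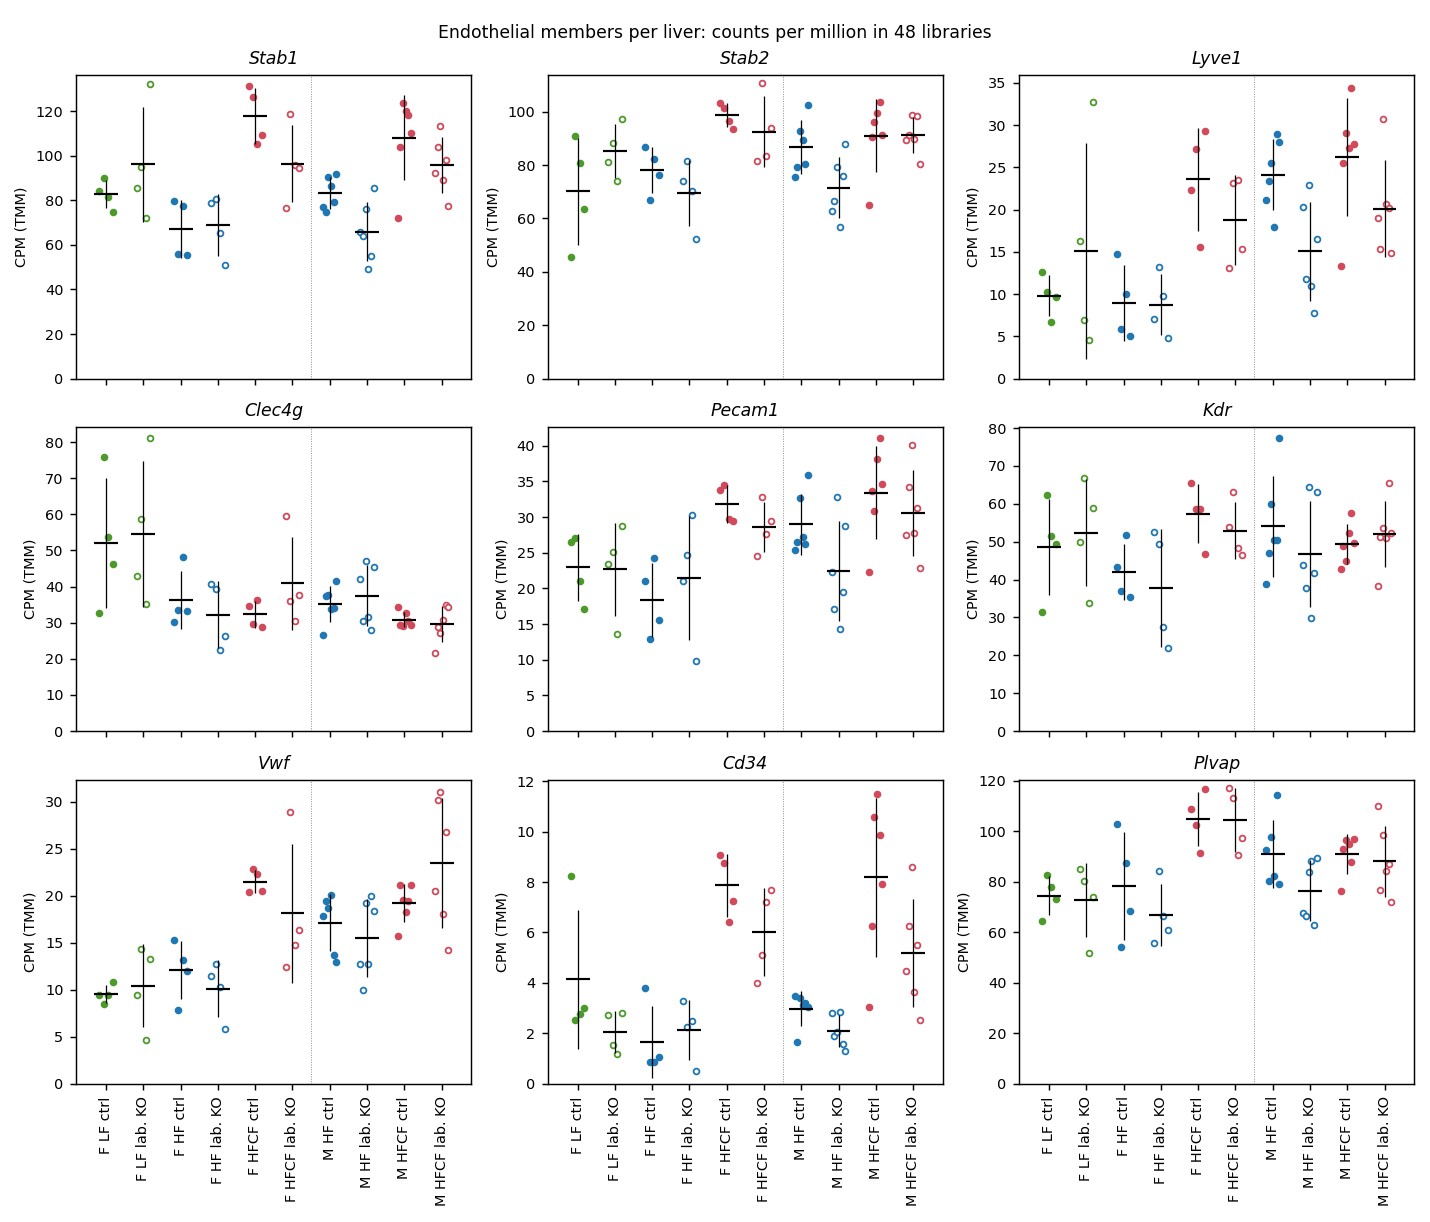
CPM of the 9 genes in each of 48 livers (y axis, linear from 0) by group (x axis; F female, M male, ctrl control, lab. KO labelled knockout). Filled points are controls and open points labelled knockouts, bars are the group mean and lines 1 SD; Cd34 lies between 6.41 and 9.08 CPM in the HFCF control females, above all 4 HF control females (0.872 to 3.81 CPM).

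The HFCF groups were first compared with the groups kept on HF. This comparison does not separate cholesterol, fructose and any other difference between the foods. In control females, 7 of the 9 genes were higher on HFCF than on HF and 0 were lower: Stab1, Stab2, Lyve1, Pecam1, Kdr, Vwf and Cd34 (edgeR quasi-likelihood test, adjusted p under 0.05), where 16.9% of all genes tested were called higher and 30.8% were called in either direction. Clec4g and Plvap were not called. Both kinds of marker were thus among the genes that rose, the sinusoidal receptors and the markers of a continuous lining. The median log2 difference of the 9 genes was 0.81, and that of all genes tested was -0.02. In bulk liver, more cells of a type and more RNA per cell cannot be told apart.

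Among the sinusoidal genes in control females, Lyve1 differed most. Its levels were 14.8, 5.92, 10.0 and 5.02 CPM in the 4 HF livers and 22.3, 27.1, 15.6 and 29.3 CPM in the 4 HFCF livers. Every HFCF liver lay above every HF liver, with a log2 difference of 1.41 (SE 0.33, edgeR quasi-likelihood adjusted p = 0.0143). Stab1 read 79.6, 56.1, 77.6 and 55.4 CPM on HF and 131, 126, 106 and 109 CPM on HFCF. These groups did not overlap either, and Stab1 rose by 0.83 on the log2 scale (SE 0.14, edgeR adjusted p = 0.00617). Stab2, the close relative that shares its scavenger role, was 86.9, 66.8, 82.3 and 76.4 CPM on HF and 103, 101, 96.7 and 93.5 CPM on HFCF. The ranges were separate but close, and the log2 difference was 0.36 (SE 0.09, edgeR adjusted p = 0.0194). The lectin gene Clec4g stood at 36.3 ± 8.02 CPM on HF and 32.3 ± 3.63 CPM on HFCF (SD, n = 4 each). Its groups overlapped, and its log2 difference of -0.15 (SE 0.15) did not pass the edgeR test (adjusted p = 0.478).

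Cd34 had the largest log2 difference of the 9 genes in these livers. It was 3.81, 0.872, 0.877 and 1.05 CPM in the HF controls and 9.08, 8.76, 6.41 and 7.26 CPM in the HFCF controls. The groups did not overlap, although 1 HF liver (replicate 1) lay well above the other 3, and Cd34 rose by 2.25 on the log2 scale (SE 0.45, edgeR adjusted p = 0.00869). Vwf, whose protein binds platelets and carries a clotting factor, was 15.3, 7.85, 13.2 and 12.0 CPM on HF and 20.4, 22.8, 22.3 and 20.5 CPM on HFCF, a log2 difference of 0.85 (SE 0.18, edgeR adjusted p = 0.00977). Pecam1 was 21.0, 12.9, 24.3 and 15.5 CPM on HF and 33.9, 34.4, 29.7 and 29.5 CPM on HFCF, a log2 difference of 0.81 (SE 0.18, edgeR adjusted p = 0.0122). Both genes separated the diets completely. Kdr overlapped between the diets (41.9 ± 7.42 and 57.4 ± 7.82 CPM, SD, n = 4 each) and passed the test at a log2 difference of 0.47 (SE 0.14, edgeR adjusted p = 0.0321). Plvap was 78.2 ± 21.4 CPM on HF and 105 ± 10.8 CPM on HFCF, and its log2 difference of 0.44 was not called (edgeR adjusted p = 0.0917).

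Without HF control replicate 1, 8 of the 9 genes were called higher in control females (43.6% of all genes then tested were called), Plvap being the addition (log2 difference 0.61, edgeR adjusted p = 0.00923), and the log2 difference of Cd34 was 3.09 (edgeR adjusted p = 6.67e-05). Calls of Stab1, Lyve1, Pecam1, Vwf and Cd34 held in 8 of 8 fits that left out 1 library. Those of Stab2 held in 5 and of Kdr in 3 of the 8.

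In control males, 2 of the 9 genes were called higher on HFCF than on HF and 0 lower, where 13.0% of all genes tested were called higher and 22.3% in either direction. Cd34 had a median of 3.16 CPM (range 1.64 to 3.49) in the 6 HF livers and a median of 8.88 CPM (range 3.05 to 11.5) in the 6 HFCF livers. The lowest HFCF liver, replicate 1, fell within the HF range and the other 5 did not, and Cd34 rose by 1.48 on the log2 scale (SE 0.27, edgeR adjusted p = 0.00242). Stab1 had a median of 82.7 CPM (range 74.9 to 91.7) on HF and 114 CPM (range 72.1 to 124) on HFCF, with a log2 difference of 0.39 (SE 0.11, edgeR adjusted p = 0.0218). The other 7 genes had log2 differences between -0.18 (Clec4g) and 0.22 (Pecam1) and were not called. Lyve1, which differed widely in females, was 24.1 ± 4.18 CPM on HF and 26.2 ± 7.0 CPM on HFCF in males (SD, n = 6 each). Without HFCF control replicate 1, Pecam1 was also called (log2 difference 0.31, edgeR adjusted p = 0.0222) and the log2 difference of Cd34 was 1.65 (edgeR adjusted p = 1.12e-05), with 37.0% of all genes called. The call of Stab1 held in 8 of 12 fits leaving out 1 library and that of Cd34 in 12 of 12.

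In males labelled knockout, 4 genes were called higher on HFCF and 0 lower, where 21.6% of all genes tested were called higher and 41.7% in either direction. Cd34 had a median of 1.98 CPM (range 1.30 to 2.83) on HF and 4.99 CPM (range 2.53 to 8.61) on HFCF, a log2 difference of 1.33 (SE 0.27, edgeR adjusted p = 0.00128). Stab1 rose by 0.54 on the log2 scale (SE 0.12, edgeR adjusted p = 0.00203) and Stab2 by 0.36 (SE 0.09, edgeR adjusted p = 0.00581). Stab2 had group means of 71.5 ± 11.5 CPM on HF and 91.4 ± 6.84 CPM on HFCF (SD, n = 6 each), and the ranges overlapped. Vwf was 15.5 ± 4.18 CPM and 23.5 ± 6.89 CPM (SD, n = 6 each), with a log2 difference of 0.60 (SE 0.20, edgeR adjusted p = 0.0245), a call that held in 7 of 12 fits leaving out 1 library. Pecam1 (0.45, edgeR adjusted p = 0.0509) and Clec4g (-0.34, edgeR adjusted p = 0.067) were not called by the main test. Pecam1 passed with the DESeq2 Wald test (adjusted p = 0.0437), with no filter on low counts (edgeR adjusted p = 0.044) and in 1 edgeR fit of all males (adjusted p = 0.0328), where Clec4g was also called, as lower (adjusted p = 0.0285).

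In females labelled knockout, 3 genes were called higher on HFCF than on HF and 0 lower, where 8.44% of all genes tested were called higher and 14.5% in either direction. Plvap, the diaphragm protein, was 55.5, 84.1, 66.4 and 60.8 CPM on HF and 117, 113, 90.4 and 97.1 CPM on HFCF. The groups did not overlap, and Plvap rose by 0.65 on the log2 scale (SE 0.14, edgeR adjusted p = 0.0153). Cd34 was 3.28, 2.25, 2.5 and 0.489 CPM on HF and 3.99, 5.12, 7.23 and 7.69 CPM on HFCF, again without overlap, with a log2 difference of 1.48 (SE 0.43, edgeR adjusted p = 0.0449). Lyve1 was 7.09, 13.2, 9.81 and 4.82 CPM on HF and 13.1, 23.1, 23.5 and 15.4 CPM on HFCF (the groups overlapped by 1 liver), and a log2 difference of 1.11 (SE 0.30, edgeR adjusted p = 0.0341). Calls of Cd34 and Lyve1 held in 3 of 8 fits leaving out 1 library, and that of Plvap in 7 of 8. Without HFCF labelled-knockout replicate 1, 6 genes were called, with Stab1, Stab2 and Vwf in addition, and 4402 of all 15114 genes tested were called.

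**Figure D2:**
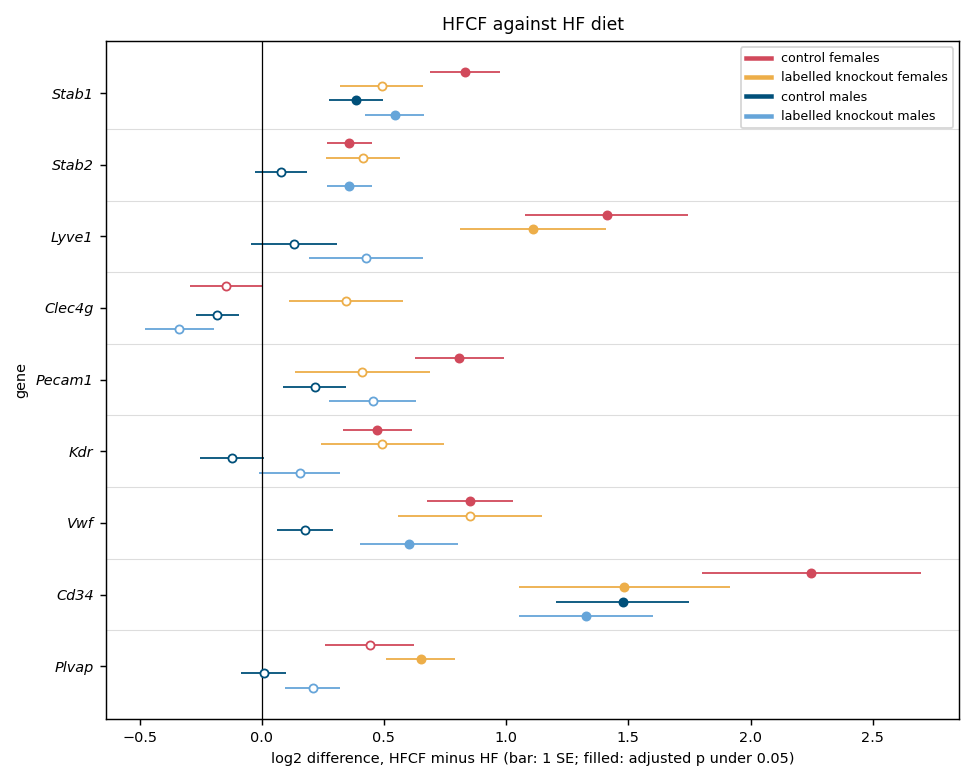
Log2 difference in level between HFCF and HF (x axis, 0 is no difference) for the 9 genes in control and labelled-knockout males and females; bars are 1 SE and filled points passed the edgeR test. Cd34 is filled in all 4 comparisons (2.25 in control females, 1.33 in males labelled knockout), and Clec4g in none.

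The female and male diet differences were compared directly. The interaction of diet and sex in controls gave 0 of the 9 genes at an adjusted p under 0.05, where 0.00646% of all genes were called, 6 of the 9 were at an unadjusted p under 0.05 and DESeq2 called 0. The male difference was the smaller by 1.28 on the log2 scale for Lyve1 (edgeR adjusted p = 0.181), by 0.67 for Vwf (edgeR adjusted p = 0.196) and by 0.59 for Kdr (edgeR adjusted p = 0.223). This result depends on 1 library. Without HF control female replicate 1, 4 of the 9 genes and 1699 of all 15762 genes passed the interaction test, with coefficients (male minus female) of -1.63 for Lyve1 (edgeR adjusted p = 0.00714), -0.80 for Vwf (adjusted p = 0.019), -1.60 for Cd34 (adjusted p = 0.0303) and -0.59 for Plvap (adjusted p = 0.0386). In the labelled knockouts, the same interaction gave 0 of 9 genes (0.0130% of all genes called, 2 of the 9 at an unadjusted p under 0.05), and 0 without HFCF replicate 1 of the females. The interaction in controls also gave 0 of 9 without HFCF control male replicate 1. The counts of all genes called in these last refits are not given here, so these 0 counts are not particular to the 9 genes.

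The comparison with the LF diet, which exists in females only, sets HF and HFCF each against a diet low in fat. Between HF and LF, 0 of the 9 genes were called in controls (0.696% of all genes called, 2 of the 9 at an unadjusted p under 0.05, DESeq2 0) and 0 in the labelled knockouts (0.155% called, 2 at an unadjusted p under 0.05, DESeq2 0). Without HF control replicate 1, 0 of the 9 genes and 112 of all 14406 genes were called in controls, and the log2 difference of Cd34 was -2.16 (edgeR adjusted p = 0.0825) in place of -1.32 (edgeR adjusted p = 0.298). Leaving out LF control replicate 1 instead, the LF liver with the most Cd34, gave -0.72 (edgeR adjusted p = 0.594). Clec4g had the lower HF level in controls and in labelled knockouts, with log2 differences of -0.53 (edgeR adjusted p = 0.300) and -0.77 (edgeR adjusted p = 0.247). Between HFCF and LF in controls, 6 genes were called higher and 1 lower, where 18.4% of all genes were called higher, 16.8% lower and 35.2% in either direction. This comparison shares its HFCF libraries with the HFCF against HF comparison.

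Vwf had the smallest adjusted p of the 9 genes in the comparison of HFCF with LF controls. It was 9.45, 8.52, 9.39 and 10.8 CPM on LF, below all 4 HFCF livers (20.4 to 22.8 CPM), and rose by 1.15 on the log2 scale (SE 0.10, edgeR adjusted p = 0.000244). Lyve1 rose by 1.24 (edgeR adjusted p = 0.00304), Stab1 by 0.49 (edgeR adjusted p = 0.00426), and Plvap by 0.48 (edgeR adjusted p = 0.00489). These 4 calls held in 8 of 8 fits leaving out 1 library. Stab2 (0.48, edgeR adjusted p = 0.0481) and Pecam1 (0.45, edgeR adjusted p = 0.0365) held in 2 and 3 of the 8. Clec4g fell: it was 32.6, 75.8, 53.8 and 46.3 CPM on LF and 34.5, 29.6, 36.2 and 28.9 CPM on HFCF, a log2 difference of -0.70 (SE 0.21, edgeR adjusted p = 0.0244) that held in 5 of 8 such fits. LF replicate 1 lay within the HFCF range for Clec4g and the other 3 LF livers lay above it. Cd34 was not called (0.90, edgeR adjusted p = 0.0769), with LF levels of 8.24, 2.54, 2.77 and 2.99 CPM; without LF replicate 1 its log2 difference was 1.5 (edgeR adjusted p = 0.000279). In the labelled knockouts, 2 genes were called higher on HFCF than on LF and 0 lower (8.26% of all genes higher, 12.0% either way). These were Cd34 (1.57, SE 0.33, edgeR adjusted p = 0.0118), called in 8 of 8 fits leaving out 1 library, and Plvap (0.54, SE 0.16, edgeR adjusted p = 0.0473), called in 1 of 8. Without HFCF labelled-knockout replicate 1, Cd34 was the 1 gene called (1.69, edgeR adjusted p = 0.00463), and 3587 of all 15040 genes were called.

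The labelled knockout was compared with its control on each diet. In HF males, 2 genes were called lower and 0 higher, where 9.88% of all genes were called lower and 18.5% in either direction, and 6 of the 9 were at an unadjusted p under 0.05. Lyve1 had a median of 24.4 CPM (range 18.0 to 28.9) in controls and 14.2 CPM (range 7.76 to 22.9) in the labelled knockouts. The ranges overlapped, and Lyve1 fell by 0.69 on the log2 scale (SE 0.21, edgeR adjusted p = 0.0304). Stab1 had a median of 82.7 CPM (range 74.9 to 91.7) in controls and 64.7 CPM (range 49.4 to 85.6) in the labelled knockouts, and fell by 0.34 (SE 0.11, edgeR adjusted p = 0.0415). The call of Lyve1 held in 6 and that of Stab1 in 3 of 12 fits leaving out 1 library, so both calls depend on single libraries. Clec4g was 35.2 ± 5.03 and 37.5 ± 8.37 CPM (SD, n = 6 each) and was not called. In the other 4 comparisons, 0 of the 9 genes were called by edgeR or by DESeq2. All genes were called at 2.21% in HFCF males (1 of the 9 at an unadjusted p under 0.05), 0% in LF females (1 of the 9), 0% in HF females (0 of the 9) and 0.0534% in HFCF females (0 of the 9). Without HFCF control male replicate 1, 1052 in place of 324 of all genes were called in HFCF males and still 0 of the 9, with Cd34 at -0.82 (edgeR adjusted p = 0.0522), Lyve1 at -0.51 (edgeR adjusted p = 0.0544) and Stab1 at -0.26 (edgeR adjusted p = 0.0607). Without HF control female replicate 1, 0 genes of all were called in HF females, and without HFCF labelled-knockout female replicate 1, 19 were called in HFCF females, none of them among the 9. The interaction of label and diet gave 0 of the 9 genes in males (1.56% of all genes called, 0 at an unadjusted p under 0.05) and 0 in females (0% called, 0 at an unadjusted p under 0.05). Leaving out the library that stood apart gave 0 of the 9 in males (282 of all genes called) and, for either library of the females, 0 of the 9 and 0 of all genes.

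**Figure D3:**
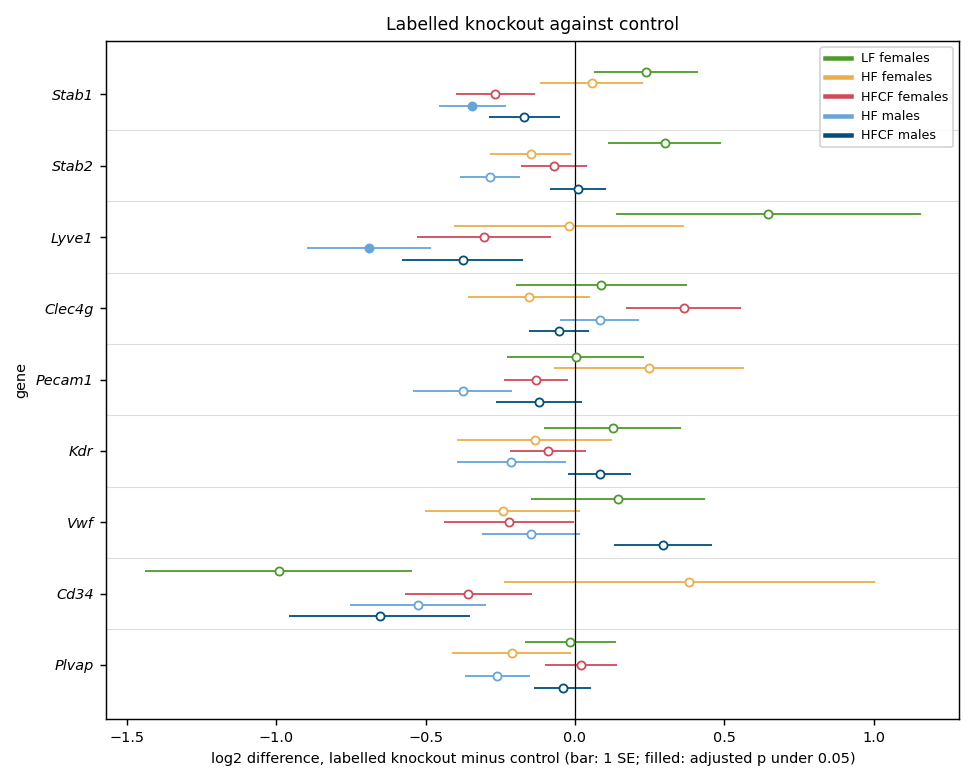
Log2 difference in level between labelled knockout and control (x axis, 0 is no difference) for the 9 genes in 5 comparisons; bars are 1 SE and filled points passed the edgeR test. Stab1 (-0.34) and Lyve1 (-0.69) in HF males are the only filled points.

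Markers of several other cell types differed between the diets. From HF to HFCF in control females, the summed level of 8 recruited macrophage markers went from 164 to 701 CPM (ranges 68.3 to 370 and 490 to 848), of 8 stellate cell markers from 407 to 949 CPM (235 to 800 and 731 to 1162), and of 5 cholangiocyte markers from 112 to 456 CPM (43.5 to 276 and 300 to 548). In control males the same 3 sums went from 239 to 682, from 602 to 900 and from 155 to 460 CPM. All 8 macrophage genes and all 5 cholangiocyte genes were called higher in both sexes, and of the 8 stellate genes 2 in females and 6 in males (7 in females without HF control replicate 1). Spp1 is on both the macrophage and the cholangiocyte list, so the sums and counts of these lists share a gene. The 6 Kupffer cell markers summed to 342 CPM on HF and 664 CPM on HFCF in control females (2 of 6 called higher) and to 308 and 494 CPM in control males (2 of 6). These markers did not all go the same way. Without HF control female replicate 1, 2 were called higher and 2 lower in control females. Without HFCF control male replicate 1, 2 were called higher and 1 lower in control males. The 5 leukocyte markers summed to 21.2 and 61.6 CPM in control females (2 of 5 called higher, with Ptprc, the leukocyte antigen CD45, at 17.9 and 56.5 CPM) and to 26.9 and 47.7 CPM in control males (1 of 5). The 6 hepatocyte markers summed to 101583 and 62599 CPM in the female controls on HF and HFCF. In HF males, the labelled knockouts had 148 CPM of recruited macrophage markers against 239 CPM in controls, 427 against 602 CPM of stellate markers, and 99926 against 75355 CPM of hepatocyte markers. There 5 of 8 macrophage and 5 of 8 stellate genes were called lower and 6 of 6 hepatocyte genes higher. The platelet markers summed to 6.31 CPM on HF and 8.0 CPM on HFCF in control females, where 0 of 2 tested genes were called: Pf4 was at 1.14 and 2.86 CPM and Itga2b at 4.59 and 4.35 CPM. The lymphatic markers include Lyve1 itself and Flt4, which is also on the sinusoidal and VEGF lists below. They summed to 253 and 258 CPM there, and 3 of 4 tested genes were called higher, Lyve1 and Flt4 among them. Of the other lymphatic markers, Pdpn was at 0.408 and 1.34 CPM and Prox1, which hepatocytes also make, at 212 and 171 CPM. The lymphatic gene Mmrn1 was at most 0.967 CPM in any library and at 0 in at least 1 library of 5 groups. The part of these cells in the endothelial results was not tested.

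Each gene was also set against the summed CPM of 17 other pan-endothelial genes of the same library. This scale was chosen after the data were seen and was used with no test. That sum was 310 ± 58.7 CPM in HF and 486 ± 21.7 CPM in HFCF control females (SD, n = 4 each), and 449 ± 54.4 and 481 ± 67.3 CPM in control males (SD, n = 6 each). A ratio taken in whole liver does not follow a gene within the endothelium, because several of these genes, Cd34 among them, are also made elsewhere. The part of other cells in the ratios was not tested. On this ratio scale Cd34 was higher on HFCF. Its log2 differences were 1.89 in control females, 1.28 in control males, 1.18 in females labelled knockout and 0.97 in males labelled knockout. Clec4g was lower in the same 4 comparisons, by -0.82, -0.27, -0.22 and -0.62. The value in females labelled knockout was -0.44 without HFCF replicate 1, whose ratio (-2.87) lay above those of the other 3 livers (-3.88 to -3.51). In control females the groups did not overlap for either gene. Stab2, which rose as CPM in control females, was at -0.32 relative to the other endothelial genes, also without overlap. Lyve1 was at 0.83 in control females and -0.01 in control males (0.09 without HFCF replicate 1). Stab1, Pecam1, Kdr, Vwf and Plvap lay between -0.21 and 0.29 in these 4 comparisons, and of these 5 genes only Stab1 in control males (0.26) had groups that did not overlap. Vwf in females labelled knockout was at 0.40 in place of 0.26 without HFCF replicate 1. Against LF in control females, Lyve1 (0.97) and Vwf (0.89) were higher and Clec4g (-0.92) lower, with groups that did not overlap. Between HF and LF in control females, the ratios of Vwf (0.68), Stab2 (0.57) and Plvap (0.41) were higher on HF without overlap. The pan-endothelial sum itself was lower on HF (310 against 400 CPM). As CPM these 3 genes were not called. Their log2 differences were 0.33 for Vwf (edgeR adjusted p = 0.422), 0.15 for Stab2 (edgeR adjusted p = 0.713) and 0.07 for Plvap (edgeR adjusted p = 0.88). The Stab2 ratio of LF replicate 1 (-3.175) lay below those of the other LF livers (-2.50 to -2.18). Ratios of Clec4g (-0.10) and Lyve1 (0.14) overlapped. The sign of these last 2 turned without HF control replicate 1 (0.06 and -0.06).

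**Figure D4:**
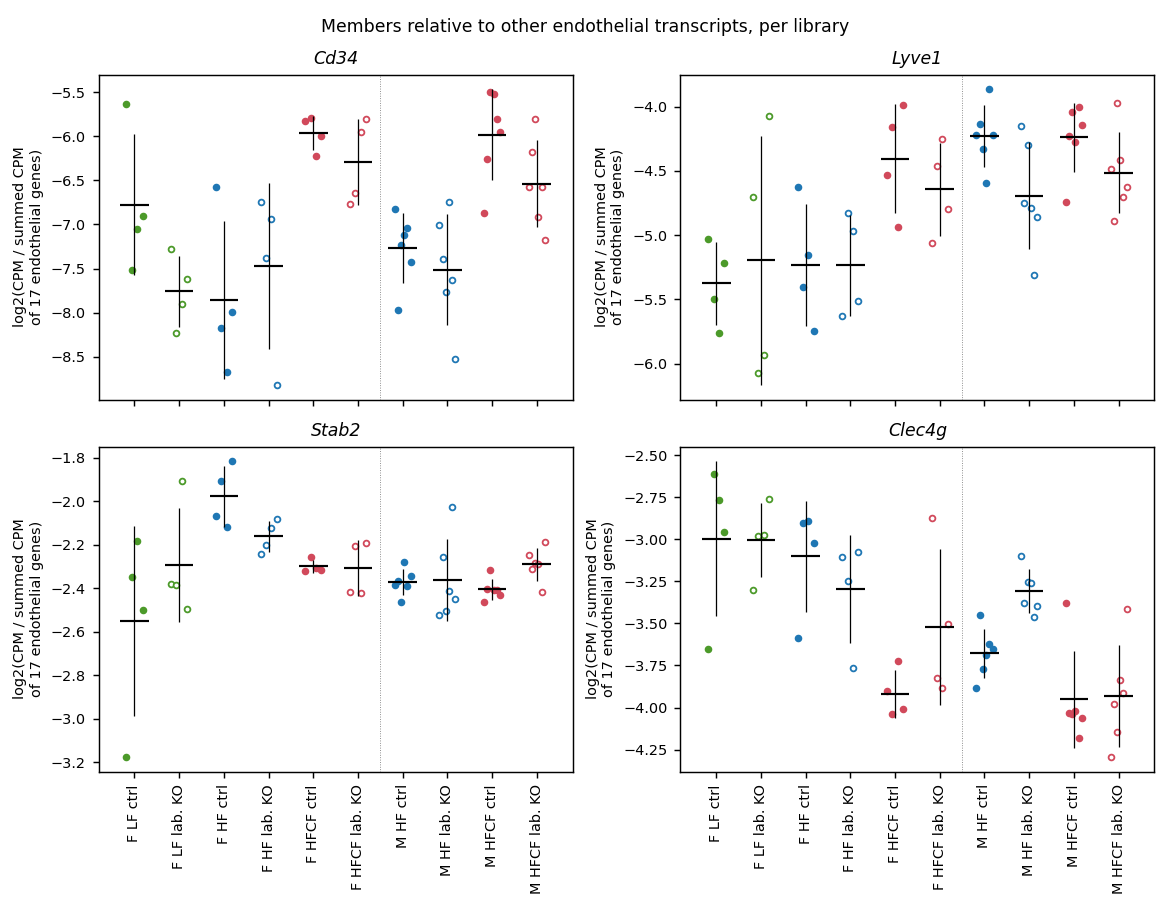
Log2 ratio of Cd34, Lyve1, Stab2 and Clec4g to the summed CPM of 17 pan-endothelial genes (y axis) in each library by group (x axis). Cd34 ratios lie higher on HFCF than on HF, by a mean of 1.89 in control females, and Clec4g ratios lower, by a mean of 0.82 there.

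Lists of related endothelial genes were counted in the same fits (the background percentages above apply). In control females, 12 of 13 tested genes of continuous and tip-type capillaries were higher on HFCF than on HF and 0 lower (median log2 difference 1.55). They included Apln, a ligand of sprouting endothelium (2.53, edgeR adjusted p = 0.00975), Cd93, a receptor of angiogenic endothelium (1.81, edgeR adjusted p = 0.0107), and the basement membrane collagens Col4a2 (1.89) and Col4a1 (1.81), which stellate cells also make. Other basement membrane genes on this list are Lamb1, Lama4, Lamc1 and Nid1, so its counts are not specific to capillary endothelium. Of 17 other pan-endothelial genes 12 were higher (median 0.65), among them the transcription factor gene Fli1 (1.21) and the junction cadherin Cdh5 (1.0). Of 15 other sinusoidal genes 6 were higher and 0 lower (median 0.32), including Flt4 (1.02), Bmp6, the iron-regulating ligand (0.85), and the mannose receptor Mrc1 (0.74), which macrophages also make. The Notch list had 7 of 11 higher (median 0.83), with the target Hey1 at 1.82 and the ligand Dll4 at 1.02. The adhesion list had 6 of 11 higher (median 0.93), with the leukocyte ligand Vcam1 at 1.43. The VEGF and angiopoietin list had 5 higher and 1 lower of 12 (median 0.49), with Angpt2 at 1.41 and the lymphatic growth factor Vegfc at 0.73. Without HF control replicate 1, 14 of 14 capillary genes, 16 of 17 pan-endothelial genes and 7 of 15 sinusoidal genes were called higher.

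The capillary list had the largest share of called genes among the endothelial lists in each of the 4 HFCF against HF comparisons, with 9 of 13 higher in control males (median 0.54), 9 of 12 in males labelled knockout (median 0.95) and 7 of 12 in females labelled knockout (median 1.10). In control males, Cav1, the coat protein of caveolae, was at 1.35 (edgeR adjusted p = 0.00154) and Cd93 at 0.89 (edgeR adjusted p = 0.0188). In males labelled knockout, Nid1, a basement membrane linker, was at 1.54 and Col4a1 at 1.31. Counts of the capillary list take in its basement membrane genes, and the part of stellate cells in them was not tested. The other sinusoidal list had 2 of 15 higher in control males (median 0.01), 4 of 15 in males labelled knockout (median 0.13) and 4 of 15 in females labelled knockout (median 0.48). Without HFCF control male replicate 1, the sinusoidal list had 4 higher and 1 lower of 15, the pan-endothelial list 8 instead of 3 higher of 17, and the adhesion list 6 instead of 2 higher of 11. Between labelled knockout and control in HF males, 7 of 12 capillary genes were lower and 0 higher (median -0.59), with Nid1 at -1.26 (edgeR adjusted p = 1.98e-05), Unc5b at -1.08 and Col4a1 at -0.99. In the same comparison 2 of 15 sinusoidal genes and 3 of 17 pan-endothelial genes were lower.

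**Figure D5:**
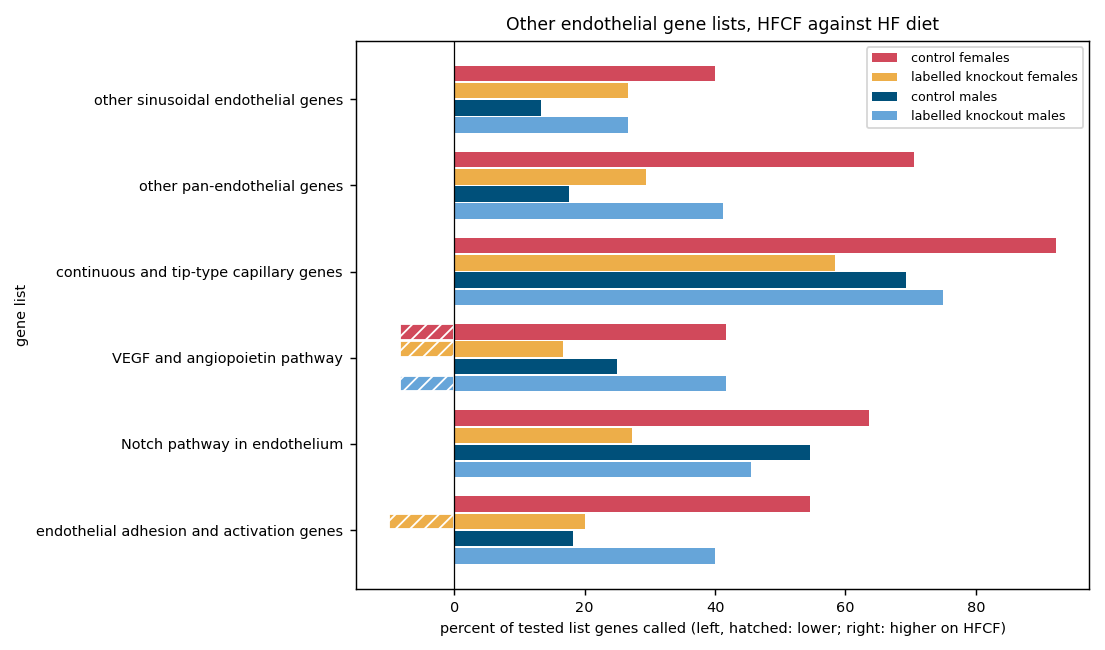
Percent of the tested genes of each list called in the HFCF against HF comparisons (x axis from 0, higher to the right and lower, hatched, to the left), by list (y axis) and comparison (colour). The capillary list has the largest share, 12 of 13 genes in control females and 9 of 13 in control males.

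Likeness of pattern was measured as Pearson's r between mean log2 CPM over the 10 groups, among 12336 genes, as a description with no p. The groups share diets and libraries, so high values are common. Among the 9 genes, Lyve1 and Pecam1 were the most alike (0.946), and Clec4g and Vwf the least (-0.661). Clec4g ran between -0.661 and 0.114 with the other 8. The genes most like Cd34 were Arhgef6 (0.986), Dpt (0.986) and H2-Ab1 (0.984), and those most like Stab1 were Plxnd1 (0.983), Dab2 (0.981) and Rasip1 (0.980). Kdr was most like Fgd5 (0.970), Eng (0.942) and Fam171a1 (0.935), and Stab2 most like Slc44a3 (0.957), Jrk (0.952) and Kcnma1 (0.949). Clec4g was most like Tmem147 (0.956), Ndufa8 (0.941) and Selenok (0.940), and Lyve1 most like C1qtnf1 (0.977), Sel1l3 (0.977) and Elovl1 (0.972). Pecam1 was most like Pde3a (0.982), Creb3l1 (0.982) and Incenp (0.982), Vwf most like Myh9 (0.982), Adam10 (0.980) and Plekhb2 (0.979), and Plvap most like Tceal9 (0.972), Gabra3 (0.966) and Mfsd11 (0.955).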

How the data were processed

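RNA of whole mouse liver was sequenced from non strand specific libraries, per the labels' protocols. The submitters' processing notes name STAR 2.6.1, HTSeq 0.6.1, DESeq2 2 and the builds GRCm38 and mm10, without saying which step used which. The authors deposited 11 tables of comparisons with raw read counts per gene. Their count columns were joined by gene identifier into 29221 genes and 48 libraries, and 1341082 repeated values were compared with 0 differing. The gene length used for levels per kilobase is the deposited one, and the authors' fold changes and normalized columns were not used.

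Each comparison was tested on its own groups in R 4.3.3 with edgeR 4.0.16 (filterByExpr, TMM, quasi-likelihood F test, Benjamini-Hochberg over all genes, threshold 0.05). Standard errors are the coefficient divided by the square root of F. CPM levels use TMM factors over all 48 libraries. The counts of 96 pairs of replicates were compared and 0 agreed within sampling noise. The fit was tested on simulated data with known changes, with the same dispersion for every gene and no library that stood apart. Genes of low count were not among those changed. The simulation therefore does not show how the fit behaves with such libraries or at counts as low as the lowest of Cd34. Alternatives were DESeq2 1.42.0 (size factors and Wald test), no filter on low counts, 1 fit for each sex, a replicate block and leaving out each library. All 9 genes are named in every comparison. From other lists up to 4 called genes with the largest change are named, and for each of the 9 genes the 3 most alike with a mean of at least 1 CPM. Genes and lists were chosen with earlier results of these data known.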

Additional observations from a re-analysis of the deposited data

Results flagged for a closer look

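In 5 of the 90 groups of CPM values of the 9 genes, 1 liver lay far from the others of its group. Chance alone gives about 1 in 20 groups such a liver. Of the 5, 3 concerned Cd34: HF control female replicate 1 was the highest at 3.81 CPM (nearest 1.05), LF control female replicate 1 the highest at 8.24 CPM (nearest 2.99), and HF control male replicate 2 the lowest at 1.64 CPM (nearest 3.04). Stab2 was lowest in HFCF control male replicate 1 at 64.9 CPM (nearest 90.4). Lyve1 was highest in HFCF labelled-knockout male replicate 3 at 30.7 CPM (nearest 20.6).

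HF control female replicate 1 also carried 800 CPM of stellate markers (others 235 to 359) and 276 CPM of cholangiocyte markers (others 43.5 to 73.0). HFCF control male replicate 1 carried 550 CPM of stellate markers (others 919 to 1051) and 158 CPM of cholangiocyte markers (others 472 to 565), and the sum of the 9 genes was 345 CPM there (others 452 to 502). The cholangiocyte sums share Spp1 with the recruited macrophage sums. The part of these markers and libraries in the values above was not tested.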

How the results depend on the processing

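Of 2565 values of the 9 genes under an alternative, 2448 kept their side of the threshold, 84 lost a call and 33 gained one. The sign changed for 112 values called under neither setting and for 0 called values. Group means under DESeq2's size factors moved by at most 1.15%. The number of the 9 genes called depended on the setting as follows, and the cause was not tested. The share of all genes called also moved with the setting, so these counts are not particular to the 9 genes. In control males, for HFCF against HF, it went from 22.3% to 37.0% without HFCF control replicate 1. For labelled knockout against control in HF males (2 called), 1 fit of all males gave 1 and leaving out 1 library gave 0 to 3. Such a fit over all groups of the sex also gave 5 in place of 7 in control females for HFCF against HF (without Stab2 and Kdr), 5 in place of 7 for HFCF against LF (without Clec4g and Pecam1), and 6 in place of 4 in males labelled knockout for HFCF against HF (with Pecam1 higher and Clec4g lower). For HFCF against HF, leaving out 1 library gave 1 to 3 in control males (2), 3 to 5 in males labelled knockout (4), 5 to 8 in control females (7) and 1 to 6 in females labelled knockout (3), where the DESeq2 Wald test gave 5. For HFCF against LF it gave 4 to 8 in control females (7) and 1 to 2 in females labelled knockout (2), where DESeq2's size factors gave 1 and no filter on low counts gave 1. The interaction of diet and sex in controls went from 0 to 4 when HF control female replicate 1 was left out. In no comparison did every same-numbered pair of libraries deviate together (r over 0.1), so the main test used no pairing. This rule cannot exclude pairing of some libraries. Between labelled knockout and control in HF females, for example, r of same-numbered pairs ran from -0.151 to 0.389. With a replicate block, 4 of the 9 genes were called in HF males between labelled knockout and control, 0 in control females between HFCF and HF, and 3 in control females between HFCF and LF. The block also added Pecam1 in males labelled knockout between HFCF and HF (edgeR adjusted p = 0.0253). Over all genes the block gave 0 calls instead of 4526 in control females between HFCF and HF and 2036 instead of 5199 between HFCF and LF. Where few genes were called by edgeR, the DESeq2 Wald test called more of all genes: 620 against 99 for HF against LF in controls, 451 against 22 in labelled knockouts, 670 against 324 for the label in HFCF males and 78 against 8 in HFCF females, and 123 against 1 for the interaction of diet and sex in controls. None of those added calls in these 5 comparisons was one of the 9 genes. Cd34, at 7 to 237 reads per library, is the gene whose values depth limits most.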
